A study of Mus musculus with 7 samples.

Results

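The 8 genes described here are clade B serpins: Serpinb1a, Serpinb1b, Serpinb1c, Serpinb6a, Serpinb6b, Serpinb8, Serpinb9 and Serpinb9b. They were chosen by symbol, with results of the same comparison of EPS and control myotubes in view, so their change with EPS is given as a description, and how many of them passed a threshold is no independent evidence of it. All 8 were listed among the 26607 genes of the data, and they are 8 of the 27 listed symbols of the clade. The cells were C2C12, a line of mouse myoblasts that form multinucleated myotubes once serum is lowered. RNA-seq libraries were made from untreated myotubes (control, n = 3, replicates 1, 3 and 4) and from myotubes given electrical pulse stimulation, or EPS (n = 4, replicates 1 to 4). All libraries are of this single line, with no genetic alteration named, and EPS was given for a day and followed by an hour of rest. The sources used here do not say whether the libraries came from separate cultures, so p-values measure the spread between these samples, which may be technical.

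Serpins are protease inhibitors that work as suicide substrates. The protease cuts an exposed reactive-centre loop, the loop then folds into the body of the serpin, and the protease is left covalently trapped and distorted. The small residues of the hinge at the start of the loop allow this movement, and the residues that follow decide which proteases are recognised. Clade B serpins lack a classical secretion signal and act mostly inside the cell, where they protect it from its own or from incoming proteases. Mice carry several gene copies where humans have the single genes SERPINB1, SERPINB6 and SERPINB9. Serpinb1a inhibits the neutrophil serine proteases elastase and cathepsin G, Serpinb6a inhibits cathepsin G and trypsin-like proteases, Serpinb9 inhibits granzyme B, and the human counterpart of Serpinb8 inhibits furin.

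In GENCODE M21 on GRCm38, 7 of the members lie within 1.16 Mb of chromosome 13, at chr13:32842092-34002794. The first 6, in the order Serpinb1a, Serpinb1c, Serpinb6b, Serpinb9, Serpinb9b and Serpinb1b, follow each other within 252.3 kb with no other listed gene between them, among the listed symbols that matched GENCODE M21. Serpinb6a lies at the far end, at chr13:33917918-34002794 on the minus strand, and Serpinb8 lies apart at chr1:107590006-107610484 on the plus strand. Serpinb9b is at chr13:33027416-33041884 and Serpinb1b at chr13:33078575-33094380, both on the plus strand. The stretch from Serpinb1b to Serpinb6a holds other clade B serpins that are not members.

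The coding sequence of the reactive-centre loop is shown for 7 members, from GENCODE M21 transcripts, because in the pairs compared below it was less alike between copies than the rest of the protein. The 18 bases in capitals code for the 6 hinge residues, and the bases in lower case code for the recognition part of the loop.

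Serpinb1a: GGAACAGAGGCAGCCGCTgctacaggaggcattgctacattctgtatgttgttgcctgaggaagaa
Serpinb1b: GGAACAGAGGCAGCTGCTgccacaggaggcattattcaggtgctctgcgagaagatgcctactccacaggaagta
Serpinb6a: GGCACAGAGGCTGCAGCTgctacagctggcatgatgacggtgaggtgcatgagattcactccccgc
Serpinb6b: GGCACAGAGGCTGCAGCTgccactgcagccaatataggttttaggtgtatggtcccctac
Serpinb8: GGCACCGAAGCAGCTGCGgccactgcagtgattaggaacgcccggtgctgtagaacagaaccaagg
Serpinb9: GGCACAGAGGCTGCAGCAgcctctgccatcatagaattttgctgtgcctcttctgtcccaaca
Serpinb9b: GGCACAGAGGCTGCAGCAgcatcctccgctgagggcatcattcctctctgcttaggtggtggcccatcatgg

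The loop of Serpinb1c was not located by the search for motifs at its start and end, and is therefore not shown. Over whole proteins, Serpinb1a shared 86.8% of aligned residues with Serpinb1b and 83.5% with Serpinb1c. Serpinb6a shared 81.1% with Serpinb6b, and Serpinb9 shared 76.7% with Serpinb9b. After the hinge the copies were less alike. Serpinb9b kept 5 of 15 aligned loop residues of Serpinb9 (33.3%), against 78.6% over the rest of the protein. Serpinb6b kept 7 of 14 residues of Serpinb6a, against 82.3% over the rest, and Serpinb1b kept 9 of 16 residues of Serpinb1a (56.2%), against 88.2%. In these 3 pairs the recognition part of the loop was thus less alike than the rest of the protein, and the levels of the copies are given separately.

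Serpinb9b had the largest ratio of EPS to control among the members. It was at 5.54, 8.91 and 7.59 CPM (the reads of a gene scaled to the library's total over listed genes) in control 1, 3 and 4, and at 13.9, 33.3, 23.9 and 38.3 CPM in EPS 1 to 4. Every EPS library lay above every control library, and EPS 1 was the lowest of the EPS group. Control libraries averaged 7.35 ± 1.70 CPM (SD, n = 3) and EPS libraries averaged 27.4 ± 10.8 CPM (SD, n = 4), a ratio of 3.72. The log2 fold change on the log2(CPM + 1) scale, which understates the change of low genes, was 1.69 ± 0.34 (SE).

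Serpinb9, the granzyme B inhibitor beside it, was more abundant and had a smaller ratio. The control libraries had 32.8, 59.9 and 35.6 CPM, and the EPS libraries 55.9, 112, 72.6 and 99.8 CPM. The groups overlapped, since EPS 1 lay below control 3. The means were 42.8 ± 14.9 CPM (SD, n = 3) and 85.2 ± 25.7 CPM (SD, n = 4), a ratio of 1.99 and a log2 fold change of 0.98 ± 0.29 (SE).

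Serpinb1b, a copy of the elastase inhibitor gene, was at 2.39, 3.67 and 1.08 CPM in control 1, 3 and 4. In EPS 1 to 4 it was at 5.40, 10.2, 5.80 and 7.91 CPM. All EPS values lay above all control values, and control 4 was the lowest with 24 reads. Control libraries averaged 2.38 ± 1.29 CPM (SD, n = 3) against 7.32 ± 2.20 CPM (SD, n = 4) under EPS, a ratio of 3.07 and a log2 fold change of 1.34 ± 0.34 (SE). Serpinb1a, the main copy, was at 80.3, 118 and 106 CPM in the control libraries and at 90.1, 150, 90.2 and 120 CPM in the EPS libraries. The groups overlapped, with EPS 2 and EPS 4 above all controls and control 1 below all EPS libraries. The ratio of means was 1.11, and the log2 fold change of Serpinb1a was 0.13 ± 0.22 (SE), smaller than its error.

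Serpinb1c, the third copy of this group, had the fewest reads of any member in a single library. It was at 1.05, 0.662 and 2.03 CPM in the control libraries, from 11 to 45 reads, and at 1.86, 3.46, 4.11 and 3.40 CPM in the EPS libraries, from 40 to 90 reads. EPS 1 lay below control 4, and the other EPS libraries lay above all controls. The exact Poisson 95% interval was 1.33 to 2.54 CPM for EPS 1 and 1.48 to 2.72 CPM for control 4, so these libraries were not distinguishable at this depth. Such intervals cover counting error only. Control libraries averaged 1.25 ± 0.708 CPM (SD, n = 3) against 3.21 ± 0.953 CPM (SD, n = 4) under EPS, a ratio of 2.57. The log2 fold change of Serpinb1c was 0.92 ± 0.28 (SE) on the log2(CPM + 1) scale, 1.37 with a pseudocount of 0.1 and 1.23 in edgeR and in DESeq2.

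Serpinb8, the relative of the furin inhibitor, was at 3.85, 3.43 and 1.04 CPM in the control libraries. It was at 5.68, 6.87, 5.71 and 4.67 CPM in the EPS libraries, all above the controls. Control 4 was again far below the other controls, with 23 reads. Control libraries averaged 2.77 ± 1.52 CPM (SD, n = 3) against 5.73 ± 0.898 CPM (SD, n = 4) under EPS, a ratio of 2.07 and a log2 fold change of 0.92 ± 0.34 (SE).

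Serpinb6a, the most abundant member, was at 493, 577 and 627 CPM in the control libraries and at 686, 774, 662 and 830 CPM in the EPS libraries. The groups did not overlap, but the lowest EPS library was only 1.06 times the highest control. The ratio of means was 1.30 and the log2 fold change 0.38 ± 0.20 (SE). Serpinb6b, its copy, was at 3.21, 6.44 and 4.61 CPM in the control libraries and at 3.77, 13.1, 8.27 and 6.74 CPM in the EPS libraries. EPS 2 was high and EPS 1 lay below 2 of the controls. The ratio of means was 1.67. The log2 fold change of Serpinb6b was 0.57 ± 0.39 (SE), and it was 0.32 without EPS 2 and 0.37 without control 1.

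**Figure D1:**
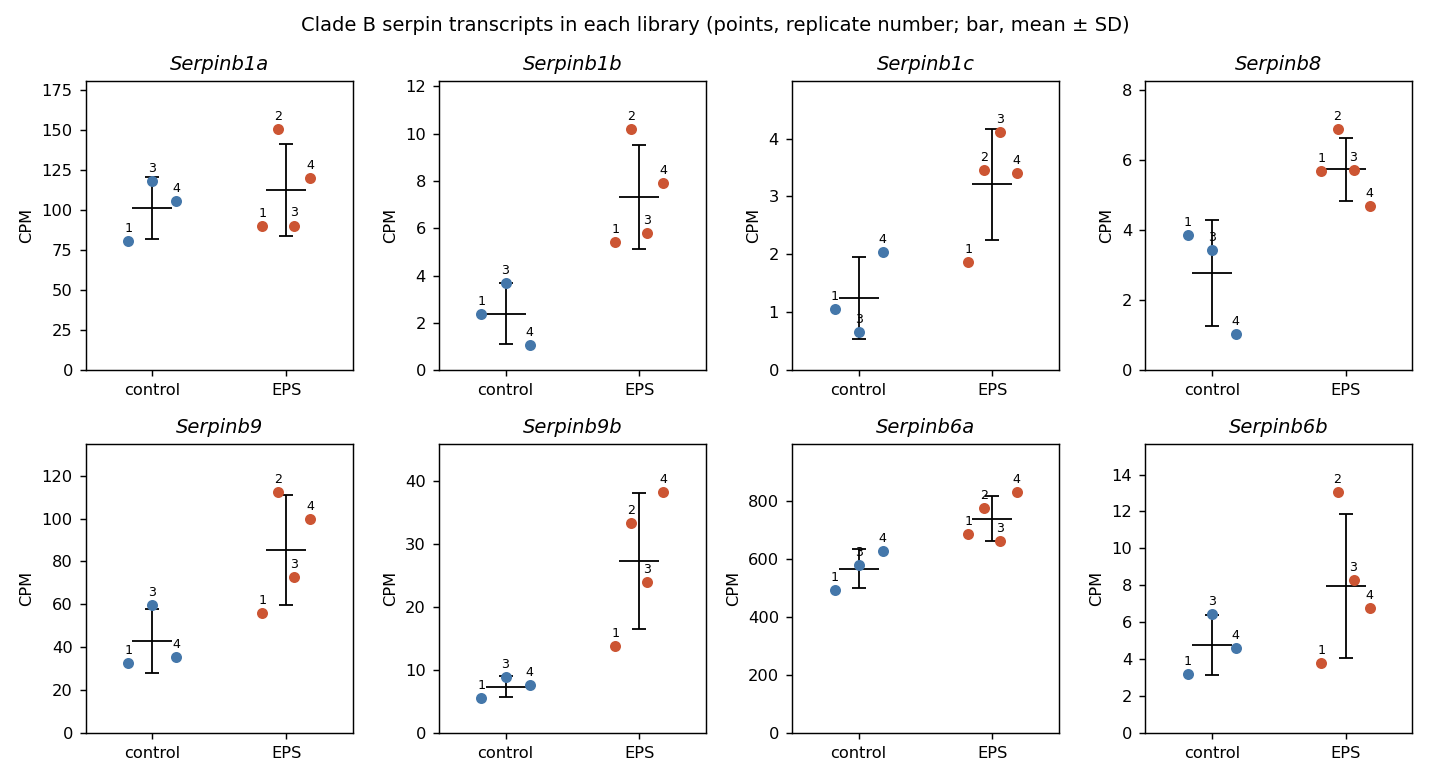
CPM of the 8 serpins (y axes, each from 0) in 3 control and 4 EPS libraries, with the replicate number at each point and the mean ± SD as a bar. Serpinb9b, Serpinb1b, Serpinb8 and Serpinb6a have every EPS point above every control point, and the other panels overlap.

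All 8 log2 fold changes were above 0 with the 7 libraries (that of Serpinb1a was at -0.0226 without control 1 and at -0.0138 without EPS 2), with a median of 0.92, against a median of 0.04 over the 19144 genes tested, of which 63.3% were above 0, and 0.10 over the 12256 genes with a mean of at least 1 CPM. Median-of-ratios scaling moves the second of these to -0.0048, so about 0.1 of each log2 fold change goes with the scaling, and Serpinb1a was then at 0.0226. A gene was counted as past both thresholds where limma gave an unadjusted P under 0.01 and the change was over 2-fold. Serpinb1b and Serpinb9b were past both, 2 of 8 members, where 0.966% of all genes tested were past both with EPS higher and 0.439% with EPS lower (185 and 84 genes, or 134 and 120 under median-of-ratios scaling). Among genes with a mean of at least 1 CPM the share with EPS higher was 1.49%. In the same limma fit 5 members, and 8.40% of all genes, had an unadjusted P under 0.05 with EPS higher, and no member had an adjusted p under 0.05, as 0.141% of all genes did. In limma at a pseudocount of 0.1, and among genes averaging at least 1 CPM, Serpinb9b was under an adjusted 0.05, beside 0.554% and 0.987% of the genes tested. The edgeR quasi-likelihood test and DESeq2 on recovered reads each put Serpinb1b and Serpinb9b under an adjusted 0.05, beside 1.51% of the 19144 genes tested by edgeR and 3.39% of the 14676 genes to which DESeq2 gave an adjusted p. The EPS libraries lay wholly above the controls for 4 of 8 members, where 7.76% of all genes tested, and 9.18% of those with a mean of at least 1 CPM, did so. Since the genes were listed with this contrast known, nothing is read from these counts.

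Control 4 stood apart from the other libraries. It had 359 genes with 1 to 5 reads, where the others had 2670 to 3181, and 14014 genes above 0, where the others had 16144 to 16984. Whether low values of control 4 were removed before deposit is not given in the sources used here, so a 0 in it need not be an absence of reads. Its total of 22120641 reads was the highest, and the other totals were between 16616917 and 21892568. The members had between 11 and 15892 reads in a library and were above 0 in all 7. Without control 4, Serpinb1b was no longer past both thresholds, with a log2 fold change of 1.03, Serpinb8 was at 0.53, and Serpinb1c was past both at 1.16. Serpinb9b remained past both, at 1.72, and 0.69% of all genes were past both with EPS higher in that fit. The EPS libraries then lay above both remaining controls for 5 of 8 members, beside 13.1% of all genes tested.

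EPS 1 was the lowest EPS library for 6 of 8 members, and EPS 2 the highest for 5. Among the controls, control 3 was the highest for 5 members and control 1 the lowest for 5. Without EPS 1, the members past both thresholds were 4 (Serpinb1b, Serpinb1c, Serpinb9 and Serpinb9b), beside 0.888% of all genes tested. The remaining EPS libraries lay wholly above the controls for 7 of 8 members, all but Serpinb1a, beside 9.78% of all genes tested. Serpinb9b alone of the members was past both without EPS 2, without EPS 4 or without control 1, beside 0.679%, 0.695% and 0.606% of all genes tested. Serpinb1b then had a log2 fold change of 1.18, 1.29 and 1.38. Leaving out control 3 put Serpinb9, at 1.24, past both with Serpinb1b and Serpinb9b, beside 0.904% of all genes tested.

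Levels can be compared between genes only per length. Per kilobase of merged exons, the control levels were 105 ± 12.5 CPM for Serpinb6a, 44.0 ± 8.40 for Serpinb1a and 12.2 ± 4.26 for Serpinb9 (SD, n = 3). These came in this order in every library of both groups, without overlap. The others were far lower in the control, with 2.19 ± 0.507 for Serpinb9b, 2.10 ± 0.717 for Serpinb6b, 1.24 ± 0.671 for Serpinb1b, 0.765 ± 0.433 for Serpinb1c and 0.578 ± 0.316 for Serpinb8. Neighbours in this lower part of the order overlapped. In the EPS group Serpinb9b, at 8.16 ± 3.22 CPM per kilobase (SD, n = 4), was above Serpinb1b, at 3.80 ± 1.14, in each of the 4 libraries. Serpinb1b and Serpinb6b, at 3.52 ± 1.71, traded places between libraries. Serpinb1c was at 1.96 ± 0.584 and Serpinb8 at 1.20 ± 0.187. Serpinb6a has 17 annotated transcripts, and by its longest transcript its control level would be 258 CPM per kilobase. It leads the order by either length.

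Because copies of a group were measured in the same library, their per-length levels can be set against each other there, free of the library's scaling. Serpinb9b stood at 17.6%, 15.5% and 22.2% of the level of Serpinb9 in control 1, 3 and 4. In EPS 1 to 4 it stood at 25.9%, 30.9%, 34.4% and 40.0%. Every EPS value was above every control value, although Serpinb9 alone had overlapping groups. Serpinb1b stood at 3.56%, 3.71% and 1.23% of Serpinb1a in the controls and at 7.16%, 8.10%, 7.69% and 7.89% in the EPS libraries. The 4 EPS values differed by a factor of 1.13 at most, where the CPM of Serpinb1b itself ranged from 5.40 to 10.2. Serpinb1c stood at 1.84%, 0.789% and 2.72% of Serpinb1a in the controls and at 2.91%, 3.25%, 6.43% and 3.999% under EPS. Its groups did not overlap, but EPS 1 and control 4 were close. Serpinb6b stood at 1.56% to 2.67% of Serpinb6a in the controls and at 1.31% to 4.03% under EPS, which overlap. By the longest transcript of each gene, a length chosen for this after seeing the data, these would be 0.650% to 1.11% and 0.549% to 1.68%, since the merged exons of Serpinb6a span 17 transcripts.

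**Figure D2:**
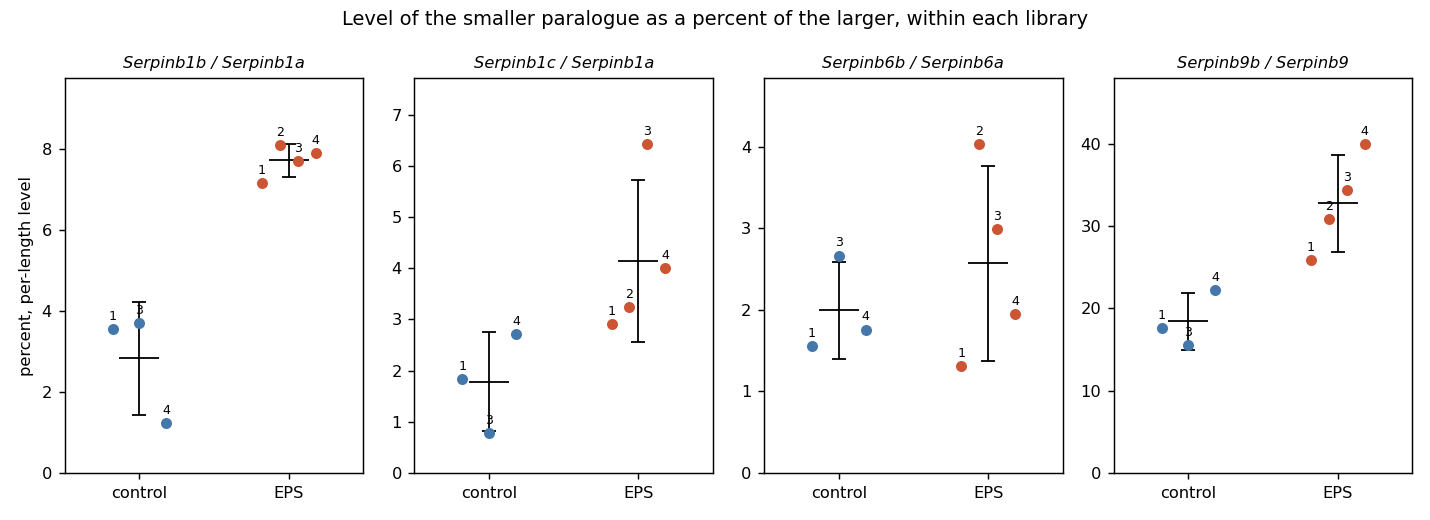
Per-length level of the less abundant copy as a percent of the more abundant copy in the same library (y axes, each from 0), for 3 control and 4 EPS libraries, with the mean ± SD as a bar. Serpinb1b against Serpinb1a runs from 1.23% to 3.71% in the controls and from 7.16% to 8.10% under EPS, and Serpinb6b against Serpinb6a overlaps.

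Expressed as shares of the summed per-length level of the 8 members, the mean share of Serpinb6a was 62.6% in the control and 60.2% in the EPS group. That of Serpinb1a was 26.1% and 21.2%, that of Serpinb9 was 7.23% and 10.5%, and that of Serpinb9b was 1.30% and 3.49%. These shares depend on the length of Serpinb6a. By longest transcripts the control and EPS shares were 78.2% and 76.9% for Serpinb6a, 15.9% and 13.2% for Serpinb1a, 3.71% and 5.50% for Serpinb9, and 0.678% and 1.87% for Serpinb9b.

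How the reads of copies were divided is not given in the sources used here. In 1 transcript of each gene, that with the longest coding sequence, windows of 100 bases, the length of a read, were searched for in transcripts of other genes, and the other transcripts and exons of the gene were not searched. In that transcript no window of Serpinb1a, Serpinb1b, Serpinb1c, Serpinb6b, Serpinb8 and Serpinb9 was shared. Serpinb6a shared 5.05% of its windows with the antisense gene 1110046J04Rik, and Serpinb9b shared 2.03% with the antisense gene Gm36099. With windows of 50 bases every member shared some with other genes, from 0.18% for Serpinb8 and 0.38% for Serpinb9 to 13.06% for Serpinb6a. The genes sharing them were the other Serpinb1 copies and a pseudogene for Serpinb1a (3.42%) and Serpinb1c (6.63%), and the other Serpinb1 copies alone for Serpinb1b (3.52%). For Serpinb6a they were Serpinb6b, Serpinb6c, Gm8436 and the antisense gene named above, and Serpinb6b shared 3.12% with Serpinb6a, Serpinb6c and Gm8436. Serpinb9b shared 5.62% with Serpinb9, Gm7242 and its antisense gene, and Serpinb9 shared its windows with Serpinb9b. The kit keeps strand, but whether counting used it is not given, so reads of overlapping or antisense genes could have been counted with Serpinb6a and Serpinb9b.

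The other clade B serpins were taken as a list by name, of 19 symbols, and some of them were known beforehand to change in these data. Of the 19, 6 had no reads, 5 had at most 3 reads in every library, and 8 were above that. None was past both thresholds in limma, while 2 had an unadjusted P under 0.05, both with EPS higher, as 8.40% of all genes had. The edgeR quasi-likelihood test on recovered reads put 2 past both thresholds with EPS higher, Serpinb9c and Serpinb9d, where 1.72% of all genes were. DESeq2 put 1 there, Serpinb9d, where 1.66% of all genes were. The median log2 fold change over the 13 tested was 0.08. Serpinb9c and Serpinb9d, which follow Serpinb1b on chromosome 13, came nearest to the thresholds. Serpinb9c was at 4.61, 5.18 and 3.93 CPM in the controls and at 9.54, 9.50, 13.1 and 6.96 CPM in the EPS libraries. The groups did not overlap, and the log2 fold change was 0.93 ± 0.26 (SE, limma adjusted p = 0.215, exact permutation p = 0.0571). Serpinb9d was at 2.92, 6.38 and 3.62 CPM in the controls and at 9.31, 14.1, 6.49 and 7.54 CPM in the EPS libraries, with a log2 fold change of 0.97 ± 0.34 (SE, limma adjusted p = 0.302, exact permutation p = 0.0571). Of their windows of 100 bases, Serpinb9c shared 16.69% with Gm11385, and Serpinb9d shared 7.21% with Serpinb9e, or 30.81% with several Serpinb9 copies at 50 bases. With 35 arrangements of the libraries, the smallest two-sided exact p is 0.0286.

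Further along the cluster the log2 fold changes were smaller on the log2(CPM + 1) scale. That holds least for the lowest genes: with a pseudocount of 0.1 Serpinb9f was at 1.04, beside 1.05 for Serpinb9c and 1.12 for Serpinb9d, and in edgeR Serpinb9f was at 0.89 and Serpinb6d at 0.69. Serpinb9e was at 0.56 ± 0.32 (SE, limma adjusted p = 0.553) and Serpinb9g at 0.32 ± 0.43 (SE, limma adjusted p = 0.813). Serpinb9f, with less than 1 CPM in every library, was at 0.25, or 0.11 without control 4 and 0.39 without control 3. Serpinb9g had 4.39 to 15.2 CPM in the controls and 5.44 to 14.3 CPM under EPS, which overlap, and without control 4 its log2 fold change was -0.0681. Of its windows of 100 bases, 38.5% were shared with Serpinb9e, Serpinb9f or Gm11397, and 52.3% of those of Serpinb9f were shared, so the reads of these copies, and of Serpinb9c and Serpinb9d, may be divided differently by another counter. Serpinb6c, between 1.54 and 4.73 CPM, was at 0.10 ± 0.32 (SE), or -0.16 without control 4, and Serpinb6d had at most 8 reads. Serpinb7, on chromosome 1 as Serpinb8 is, was at 9.74, 25.2 and 18.2 CPM in the controls and at 15.5, 17.2, 7.95 and 8.71 CPM under EPS. Its log2 fold change was -0.46 ± 0.38 (SE, limma adjusted p = 0.688), the only one below 0 among the 13 tested with all 7 libraries. It was at -0.175 without control 3, -0.30 without EPS 3 and -0.82 without control 1.

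**Figure D3:**
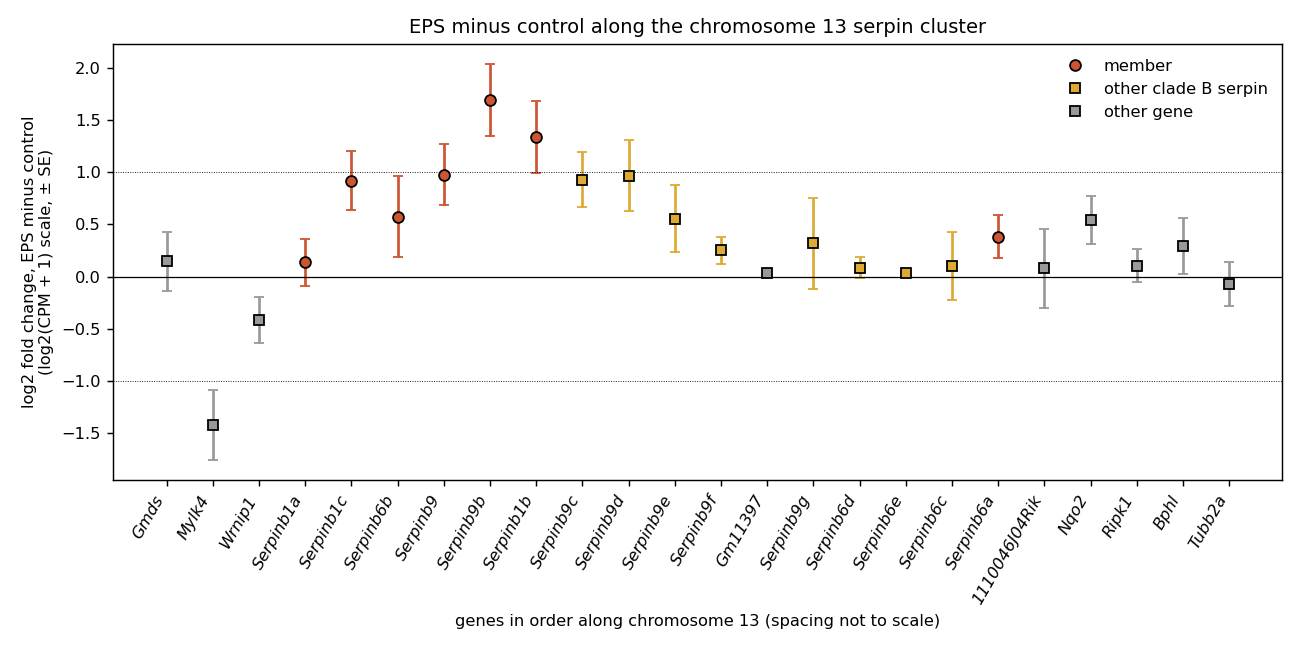
Log2 fold change, EPS minus control, on the log2(CPM + 1) scale with its standard error (y axis), for 24 genes in their order along chromosome 13 (x axis, not to scale), with dotted lines at a 2-fold change. Serpinb9b and Serpinb1b are the highest at 1.69 and 1.34, Mylk4 on the near flank is at -1.42, and Gm11397, which RefSeq names Serpinb9h, is drawn with the other genes.

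Neighbours were sought among listed symbols that matched GENCODE M21. Of the 21 tested genes around the members, 11 are other clade B serpins counted above, 10 of them with a log2 fold change above 0. Of the 10 other neighbours, which include Gm11397 (Serpinb9h in RefSeq, with at most 1 read in a library), 7 were above 0 and 3 below, where 63.3% of all genes tested were above 0. Among these 10, Nqo2 was higher and Mylk4 lower at an unadjusted P under 0.05, as 8.40% and 3.21% of all genes were. Mylk4, a myosin light chain kinase gene that lies 2 genes before Serpinb1a, was at 108, 157 and 85.2 CPM in the controls and at 68.1, 46.8, 38.0 and 24.4 CPM in the EPS libraries. It was lower in every EPS library, with a log2 fold change of -1.42 ± 0.34 (SE, limma adjusted p = 0.143). Mylk4 was past both thresholds in limma, as 0.439% of all genes were with EPS lower, and in edgeR and DESeq2. No other of the 21 was past both in limma, while edgeR added Serpinb9c and Serpinb9d and DESeq2 added Serpinb9d. Tubb2a, a tubulin gene beyond Serpinb6a, was at -0.07 ± 0.21 (SE). Nqo2, a quinone reductase gene whose span overlaps that of Serpinb6a on the other strand, was at 0.54 ± 0.23 (SE, limma adjusted p = 0.415). Ripk1, a kinase gene of cell death signalling whose first bases also overlap Serpinb6a on that strand, was at 0.11 ± 0.16 (SE).

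The promoter sequences are shown for Serpinb9b and Serpinb1b, the members past both thresholds, and for Serpinb8, the member with a searched motif in more than 1 place. They run from 250 bases before to 50 bases after the start site in RefSeq on GRCm38.p6, at chr13:33027164-33027463, chr13:33083853-33084152 and chr1:107589756-107590055, all on the plus strand. The window of Serpinb1b, like that searched for Serpinb9, lies inside the GENCODE M21 span of its gene. Sequence before the GENCODE start of these genes was not searched. Capitals mark matches to TGANTCA, the AP-1 site.

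Serpinb9b: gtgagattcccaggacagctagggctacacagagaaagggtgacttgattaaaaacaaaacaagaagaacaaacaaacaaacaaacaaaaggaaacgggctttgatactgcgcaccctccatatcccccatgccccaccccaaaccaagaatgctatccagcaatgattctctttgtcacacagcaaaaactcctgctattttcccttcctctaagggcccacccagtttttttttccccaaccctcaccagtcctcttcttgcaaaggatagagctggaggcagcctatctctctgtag
Serpinb1b: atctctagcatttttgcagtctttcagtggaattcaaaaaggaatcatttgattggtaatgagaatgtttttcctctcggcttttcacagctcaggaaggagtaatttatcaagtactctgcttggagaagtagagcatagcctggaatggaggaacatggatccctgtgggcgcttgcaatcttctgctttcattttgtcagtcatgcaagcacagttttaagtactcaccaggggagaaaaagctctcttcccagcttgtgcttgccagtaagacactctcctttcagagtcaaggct
Serpinb8: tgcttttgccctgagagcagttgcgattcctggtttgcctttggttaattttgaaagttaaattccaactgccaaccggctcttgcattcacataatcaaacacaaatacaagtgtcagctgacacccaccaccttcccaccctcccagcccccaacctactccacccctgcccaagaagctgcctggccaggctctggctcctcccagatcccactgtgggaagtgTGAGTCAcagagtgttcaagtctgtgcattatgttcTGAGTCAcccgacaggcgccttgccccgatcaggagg

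The motifs searched on both strands were TGACNNNGC (the core of the antioxidant response element), TGANTCA and GCGTG (the core of the xenobiotic response element). Their shares among the 32851 promoters of the table were 12.4%, 7.80% and 32.4%. The table held 9 promoters of 7 members, and Serpinb1a had no entry. Serpinb8 had TGAGTCA at 23 bases before the start site and at position 14 after it. Of all promoters, 0.46% hold TGANTCA in 2 or more places. Among the other clade B serpins, Serpinb11, with at most 1 read in a library, also held TGANTCA in 2 places. Serpinb2, Serpinb5, Serpinb7 and Serpinb12 held it in 1 place of a promoter, while the Serpinb3 copies and those of chromosome 13 held none. Serpinb7, where the match was also TGAGTCA, had a log2 fold change of -0.46. Whether these sites bear on the levels was not tested. Serpinb6a had TGACNNNGC in one of its promoters and GCGTG in the other. None of these letters was found in the windows of Serpinb9b, Serpinb1b, Serpinb1c, Serpinb6b and Serpinb9.

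By likeness of profile over the 7 libraries, the genes nearest to Serpinb9b were Mmd, Hspb1 and 4930506M07Rik. Likeness was the root mean square difference between log2(CPM + 1) values centred on each gene's mean, among 12255 other genes with a mean of at least 1 CPM. Mmd, named for monocyte to macrophage differentiation, differed by 0.184 and was at 58.1, 74.0 and 65.5 CPM in the controls and at 131, 244, 172 and 394 CPM under EPS. Hspb1, which encodes a small heat shock protein, differed by 0.215, and 4930506M07Rik by 0.229. Serpinb9b itself deviated from its own mean by 0.946 on this measure. Serpinb9 ranked 44 and Serpinb1b ranked 64 by likeness to Serpinb9b, while Serpinb8 ranked 1050.

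The genes nearest to Serpinb1b were Mthfs, a folate enzyme gene, at 0.156, Dhrs7, a short-chain dehydrogenase gene, at 0.167, and Ptx3, which encodes a pentraxin, at 0.175. Dhrs7 was at 20.7, 24.7 and 14.5 CPM in the controls and at 37.7, 56.1, 35.9 and 50.1 CPM under EPS. Mthfs and Ptx3 were listed at 0 in control 4, the library with few low genes, in which Serpinb1b too was lowest. Among the members, Serpinb9 was nearest to Serpinb1b, at rank 40, and Serpinb8 was at rank 104. Serpinb1a, the copy with the most similar protein, was at rank 3975.

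**Figure D4:**
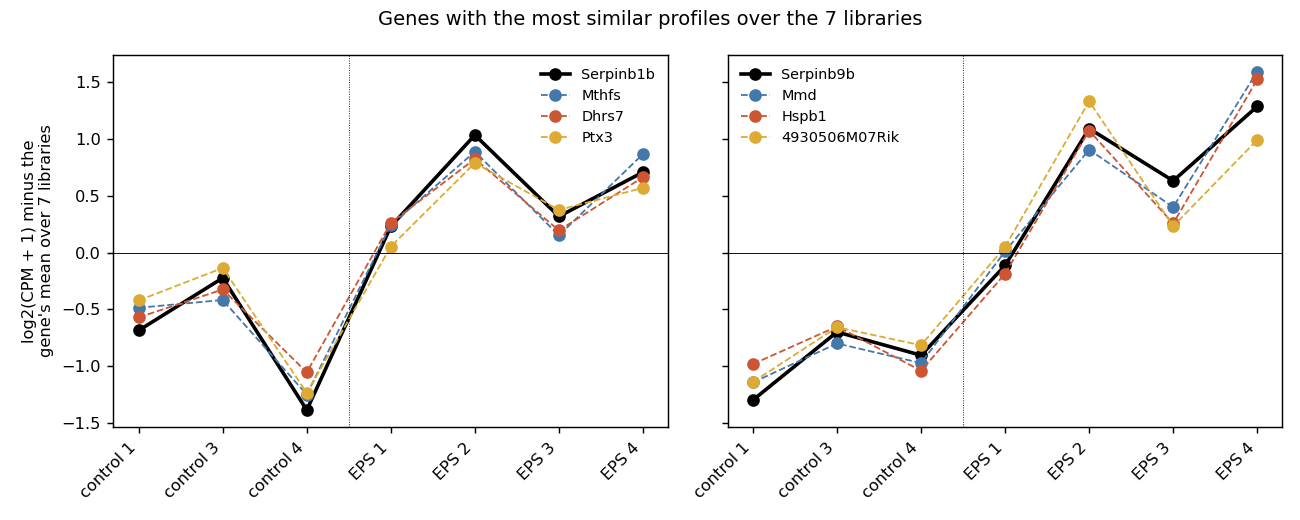
Log2(CPM + 1) minus the gene's own mean over the 7 libraries (y axis) for Serpinb1b and Serpinb9b (black) and the 3 genes most like each (dashed), by library (x axis, where lines only join points of a gene). Serpinb1b is lowest in control 4 and highest in EPS 2, and Serpinb9b is lowest in control 1 and highest in EPS 4.

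Proteases that clade B serpins inhibit were taken as a chosen list of 14, which does not cover all targets of the clade. Most of these 14 were at low levels in these cells. Of 14 listed, 2 had no reads, 6 had a mean of at least 1 CPM, and none was past both thresholds in either direction by limma. At an unadjusted P under 0.05, 1 was higher and 1 lower, where 8.40% and 3.21% of all genes tested were. With EPS higher, edgeR and DESeq2 each put 1 past both thresholds, where 1.72% and 1.66% of all genes were. That gene was Plg, the plasminogen gene, which had no reads in the controls and at most 0.425 CPM under EPS. The median log2 fold change was -0.01. Furin, the proprotein convertase, had the highest mean, with 187, 99.3 and 139 CPM in the controls and 141, 101, 168 and 133 CPM under EPS, and a log2 fold change of -0.04 ± 0.24 (SE, limma adjusted p = 0.955). Casp8, an initiator caspase gene, was at 20.2, 31.4 and 18.3 CPM in the controls and at 23.6, 22.7, 17.4 and 30.5 CPM under EPS, with a log2 fold change of 0.03 ± 0.25 (SE). Elane and Ctsg, the neutrophil targets of Serpinb1a, and Gzmb, the target of Serpinb9, were below 0.3 CPM in every library.

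All 12 lysosomal cathepsins had reads, and none was past both thresholds in limma. At an unadjusted P under 0.05, 1 was higher and 2 were lower, where 8.40% and 3.21% of all genes tested were. The edgeR test put none past both thresholds, and DESeq2 put 1, Ctsc, with EPS lower, as it did 268 of all genes. The median log2 fold change was 0.07. Ctsd, which had the highest mean CPM, had a log2 fold change of -0.16 ± 0.35 (SE). Ctsl, with the next highest mean, was the one that was higher. It was at 541, 560 and 508 CPM in the controls and at 815, 1212, 715 and 919 CPM under EPS, with no overlap and a log2 fold change of 0.74 ± 0.24 (SE, limma adjusted p = 0.267). Serpins of other clades, 36 by name, of which 22 had reads, had a median log2 fold change of 0.02, and none was past both thresholds in limma, edgeR or DESeq2. In limma 1 was higher and 1 lower at an unadjusted P under 0.05, beside the same 8.40% and 3.21% of all genes. The most abundant were Serpinf1, a secreted anti-angiogenic factor, at -0.09 ± 0.23 (SE), and Serpinh1, the collagen chaperone, at -0.46 ± 0.17 (SE, limma adjusted p = 0.338).

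In bulk RNA, fewer cells of a type and less RNA per cell cannot be told apart. The summed level of 10 myotube markers was 20503 to 22970 CPM in the controls and 14955 to 22227 CPM under EPS, and none was past both thresholds in limma, where 1 was lower at an unadjusted P under 0.05. In that fit 3.21% of all genes were lower at this P. Of the 10, 8 had a log2 fold change below 0 and 2 above 0, with a median of -0.37. Over all genes tested, 63.3% were above 0. By edgeR and by DESeq2, Myog and Actn2 were past both, with EPS lower, as were 300 and 268 of all genes. Myog, a myogenic factor named after its values were seen, was at 1794 CPM in control 4 and at 278 to 605 CPM in the other libraries. The summed level of 6 markers of undifferentiated or dividing myoblasts was 218 to 313 CPM in the controls and 333 to 925 CPM under EPS, without overlap, although each of the 6 single genes overlapped between groups. The 4 cell cycle genes of the list (Mki67, Top2a, Ccnb1 and Cdk1) were higher at an unadjusted P under 0.05 in limma. Of all genes tested, 8.40% were higher in this way. The myoblast markers Pax7 and Myf5 were at -0.12 ± 0.24 (SE) and 0.20 ± 0.34 (SE). Of the 6, none was past both thresholds in limma, while edgeR and DESeq2 each put Mki67 and Ccnb1 past both. With EPS higher, 1.72% of all genes were past both in edgeR and 1.66% in DESeq2. Their part in the values of the serpins was not tested. The 12 leukocyte markers summed to 1.08 to 2.53 CPM in the controls and 1.86 to 3.08 CPM under EPS, and 4 of them, Cd3e, Nkg7, S100a9 and Adgre1 (listed as Emr1), were at 0 in every library. Ptprc, which defines leukocytes, had at most 1 read in a library. None was past both thresholds in limma, edgeR or DESeq2. At an unadjusted P under 0.05 in limma 1, Csf1r, was higher, as 8.40% of all genes were. Csf1r had 0 to 0.181 CPM in the controls and 0.228 to 0.690 CPM under EPS. S100a8, the other leukocyte marker without overlap between groups, had no reads in the controls and 1 read in each EPS library. Every EPS library lay above every control library for 7.76% of all genes tested.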

How the data were processed

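Gene expression was measured by RNA-seq in C2C12 myotubes, with 3 control and 4 EPS libraries. The authors selected poly(A) RNA with a kit that keeps strand, sequenced paired-end reads and, per their processing notes, used STAR 2.5.4b with the GRCm38 build. The values deposited by the authors are CPM for each gene symbol, and every value was a whole multiple of 1 read to within 0.1 read (100% of values). The read counter, annotation and strand setting are not given in the sources used here. Groups and replicate numbers were taken from the labels.

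Genes above 0 in at least 1 library were fitted with limma 3.58.1 in R 4.3.3 on log2(CPM + 1), EPS against control, with a mean-variance trend and no covariate. Genes past both thresholds had an unadjusted P under 0.01 and over a 2-fold change. Adjusted p-values are Benjamini-Hochberg over all genes tested. Since the unit is CPM, count models were alternatives only, with edgeR 4.0.16 and DESeq2 1.42.0 on recovered reads. Further settings tried were median-of-ratios scaling, quantile normalization, pseudocounts of 0.5 and 0.1, genes averaging at least 1 CPM, a replicate block, a P of 0.001, other lengths and windows, and leaving out each library. The limma fit was tested on simulated data. Reads per library were 16616917 to 22120641, and 3 reads were 0.136 to 0.181 CPM. A single gene that is no member was also tested by exact permutation.

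The members and lists were chosen with earlier results of these data known. Named were the 8 members, other clade B serpins above 3 reads, and from each other list the genes past both thresholds and the 2 with the highest mean, marker lists being given as sums, with exceptions stated. Also named were the neighbours Nqo2 and Ripk1, whose spans overlap that of Serpinb6a. For each member past both thresholds the 3 genes nearest in profile were named. Coordinates and transcripts are from GENCODE M21, in which 22467 symbols were matched, and promoters are from RefSeq on GRCm38.p6.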

Additional observations from a re-analysis of the deposited data

How the results depend on the processing

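Serpinb9b was past both thresholds in all 15 other fits at a P of 0.01, with log2 fold changes of 1.50 to 1.97, and was the 1 member left at a P of 0.001. Serpinb1b was past both in 10 of them and not without control 1, control 4, EPS 2 or EPS 4, nor with the replicate block (1.18). DESeq2 added Serpinb1c. Leaving out single libraries gave 1 to 4 members past both thresholds, the latter without EPS 1, and 0 to 1 other clade B serpins, the latter without EPS 4. For other clade B serpins the count was 1 at a pseudocount of 0.1, 2 with edgeR and 1 with DESeq2. Over all genes, EPS higher and EPS lower were 185 and 84 as reported, 445 and 156 at a pseudocount of 0.1, 329 and 300 with edgeR, 317 and 268 with DESeq2, and 71 and 35 at a P of 0.001. Without single libraries they were 116 to 173 and 52 to 82. Median-of-ratios scaling gave 134 and 120, and quantile normalization 130 and 122.

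Whether the replicate numbers pair the libraries is not given in the sources used here. In their deviations from the group means, same-numbered libraries correlated at 0.2454, -0.4465 and 0.0679 over 12256 genes. Not every library correlated best with its own number. These deviations sum to 0 within each small group, so the correlations cannot decide whether the libraries were paired. The replicate block left 99 genes with EPS higher, 62 lower and 1 member (Serpinb9b). It leaves EPS 2 without a partner, so its fold changes equal those without EPS 2. Signs turned for Serpinb1a (-0.0138), Serpinb6c (-0.0807) and Serpinb6d (-0.0034) with the block and without EPS 2, where the cause was not tested. Without single libraries Serpinb1a ranged from -0.0226 to 0.2539, Serpinb6c from -0.1603 to 0.2444, Serpinb6d from -0.0034 to 0.1362 and Serpinb9g from -0.0681 to 0.7275. Depth limits Serpinb1c, Serpinb1b and Serpinb8 most, at 11 to 66 reads in the control libraries.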
